A study of Saccharomyces cerevisiae with 24 samples.

Results

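The nitrogen catabolite genes and permeases described here are 10 genes of budding yeast, taken by name from the 6571 rows of the deposited sense and antisense count tables, and all 10 were present in both. They are the ammonium permeases MEP1, MEP2 and MEP3, the amino acid permeases GAP1, PUT4 and CAN1, the allantoate permease DAL5, and the GATA transcription factors GLN3, GAT1 and DAL80. The rule that selects them uses their names and no measured value, but the list was drawn up with earlier results of these data known.

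In nitrogen catabolite repression, yeast given a preferred nitrogen source keeps the activators Gln3 and Gat1 out of the nucleus, and genes for taking up and breaking down poorer sources stay low. When preferred sources run short, the TORC1 pathway and the Gln3 partner Ure2 let these activators reach GATA elements upstream of their target genes, where the repressor Dal80 binds the same elements. GAP1, MEP2, DAL5 and DAL80 are classical targets, whereas CAN1, the arginine permease, is known more for its regulation by arginine and by endocytosis.

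The libraries come from a study of how Rtf1, a subunit of the Paf1 elongation complex, works with Rad6, the enzyme that attaches ubiquitin to a lysine of histone H2B, and the comparisons ask how far the Rtf1 and Rad6 substitutions act like loss of Rad6 or of that lysine. Each of 8 strains gave 3 libraries labelled as biological replicates, 24 in all. The rad6Δ tagged strain carried rad6Δ::KanMX and 3xHA-RTF1, and the rad6Δ untagged strain carried the deletion alone. H2B-K123R had the lysine substitution in both H2B genes, HTB1 and HTB2, and no tags. The strain rtf1-108-110AAA carried its substitution in HA-tagged Rtf1, beside Myc-tagged Rad6. In rad6-R6A,M10A and rad6-R6Q the substitutions lay near the start of Myc-tagged Rad6, beside HA-tagged Rtf1. WT tagged carried both tags on the wild-type genes, and WT untagged carried neither. All strains were MATa with the alleles his3Δ200, lys2-128δ, ura3-52 and trp1Δ63, and were grown in YPD, a rich medium, to log phase, so nitrogen supply was not varied. Cells of Kluyveromyces lactis were mixed in before RNA extraction as a spike-in. Each strain is 1 genotype, and the labels do not say whether more than 1 isolate was used.

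Sense totals were 7227245 to 10782960 counts per library, antisense totals 411344 to 611282, and K. lactis totals 1051104 to 1591505. RAD6 had 0 to 1 sense counts in the rad6Δ tagged libraries against 357 to 467 in WT tagged, and 0 in the rad6Δ untagged libraries against 413 to 533 in WT untagged. It had 1011 to 1587 in rad6-R6Q, 1231 to 1420 in rad6-R6A,M10A and 476, 748 and 1320 in rtf1-108-110AAA. The tagged substitution mutants were thus not matched to WT tagged in RAD6 counts, and rtf1-108-110AAA varied between libraries. H2B-K123R reached 613, with every library above WT untagged. These counts are not scaled, and the cause of the differences was not tested. Levels are given as CPM, counts scaled by the library's TMM-adjusted sense total to a common size, where TMM is edgeR's scaling by the bulk of the genes. Fold changes come from edgeR's quasi-likelihood test over all 5790 sense or 3741 antisense rows that passed its filter on low counts, and a gene was called at a Benjamini-Hochberg adjusted p under 0.05 over those rows. Of the members, 9 passed the sense filter (DAL80 did not) and 5 passed the antisense filter (CAN1, GAT1, MEP1, MEP2 and MEP3). With K. lactis counts as the scale in place of TMM, the median log2 change of all sense genes was 0.33 in rad6Δ tagged, 0.24 in both rtf1-108-110AAA and rad6Δ untagged, 0.26 for rad6-R6A,M10A, 0.17 for rad6-R6Q and 0.04 for H2B-K123R, so a TMM change is a change relative to the other genes.

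The upstream regions carry the letters that GATA factors are known to read, and those of 4 genes are printed because they show different sense results: GAP1 and PUT4 were higher in the deletions, MEP2 was lower and DAL5 passed no test. Each is the stretch of 300 bases that ends 100 bases before the start codon, from the RefSeq copy of build R64, written 5′ to 3′ on the gene's own strand, with every GATAA, or TTATC where the match lies on the other strand, in capitals.
GAP1, chrXI:514663-514962, plus strand: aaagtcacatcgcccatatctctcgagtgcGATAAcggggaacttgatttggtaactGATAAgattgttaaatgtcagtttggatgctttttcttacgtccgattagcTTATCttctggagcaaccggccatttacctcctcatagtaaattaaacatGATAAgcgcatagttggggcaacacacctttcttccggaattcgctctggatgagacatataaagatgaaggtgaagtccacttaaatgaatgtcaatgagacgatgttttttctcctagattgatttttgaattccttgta
PUT4, chrXV:988883-989182, minus strand: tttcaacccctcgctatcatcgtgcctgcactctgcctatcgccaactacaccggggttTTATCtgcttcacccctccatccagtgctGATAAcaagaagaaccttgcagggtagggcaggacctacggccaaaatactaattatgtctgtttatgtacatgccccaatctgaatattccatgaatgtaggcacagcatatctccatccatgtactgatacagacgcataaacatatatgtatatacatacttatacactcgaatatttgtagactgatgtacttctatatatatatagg
MEP2, chrXIV:357053-357352, plus strand: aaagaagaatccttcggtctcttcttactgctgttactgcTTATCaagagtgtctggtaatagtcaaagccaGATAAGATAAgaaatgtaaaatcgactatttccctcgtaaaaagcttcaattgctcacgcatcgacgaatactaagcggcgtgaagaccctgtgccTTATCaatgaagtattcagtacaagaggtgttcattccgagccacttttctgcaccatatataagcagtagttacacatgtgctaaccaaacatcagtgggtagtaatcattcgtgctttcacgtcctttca
DAL5, chrX:719266-719565, plus strand: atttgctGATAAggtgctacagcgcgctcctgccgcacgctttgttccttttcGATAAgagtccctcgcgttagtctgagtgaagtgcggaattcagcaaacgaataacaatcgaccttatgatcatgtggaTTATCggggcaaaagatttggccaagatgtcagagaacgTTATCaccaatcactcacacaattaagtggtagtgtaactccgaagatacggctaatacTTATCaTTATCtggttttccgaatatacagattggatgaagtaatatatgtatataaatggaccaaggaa
The window held 4 matches for GAP1, 2 for PUT4, 4 for MEP2 and 6 for DAL5. It held 6 for GAT1, 5 for CAN1, 4 each for DAL80 and MEP1, 2 for MEP3 and 1 for GLN3. At least 4 matches were present for 7 of the 10 members, against 2.38% of the 6020 coding genes with such a window, and at least 1 match for all 10, against 60.12%. Of the 51 pathway genes described further below, 7 had at least 4 matches and 36 at least 1. The list of members includes classical targets of GATA factors, so its share is not an independent result. DAL5 and GAT1 had the most matches and were called in no mutant, but their spread or low counts left changes hard to detect. GLN3 had the fewest and rose in all 6. Whether the number of matches goes with the sense result was not tested. A match is a description of the letters and not of binding.

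Each mutant was set against the wild type with the same tags or none. The members, like all genes, were called most often in the RAD6 deletions. Of the 9 tested, edgeR called 3 higher and 2 lower in rad6Δ tagged, where it called 41.7% of all tested genes (21.5% higher, 20.2% lower). For rad6Δ untagged the members counted 3 higher and 3 lower, beside 42.8% of all genes (22.3% and 20.5%). For H2B-K123R 3 were higher and 0 lower, beside 26.3% (14% and 12.3%). The members counted 1 higher and 2 lower in rtf1-108-110AAA, beside 24.5% of all genes (11.9% and 12.6%). They counted 1 and 1 for rad6-R6A,M10A, beside 25.2% (12% and 13.2%), and 1 and 1 for rad6-R6Q, beside 29.1% (14.6% and 14.5%). Called shares of 22.2% to 66.7% of the members thus stood beside all-gene shares of 24.5% to 42.8%. The list's median log2 change lay between -0.17 and 0.01 in the 6 comparisons, and that of all genes between -0.02 and 0.02.

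**Figure D1:**
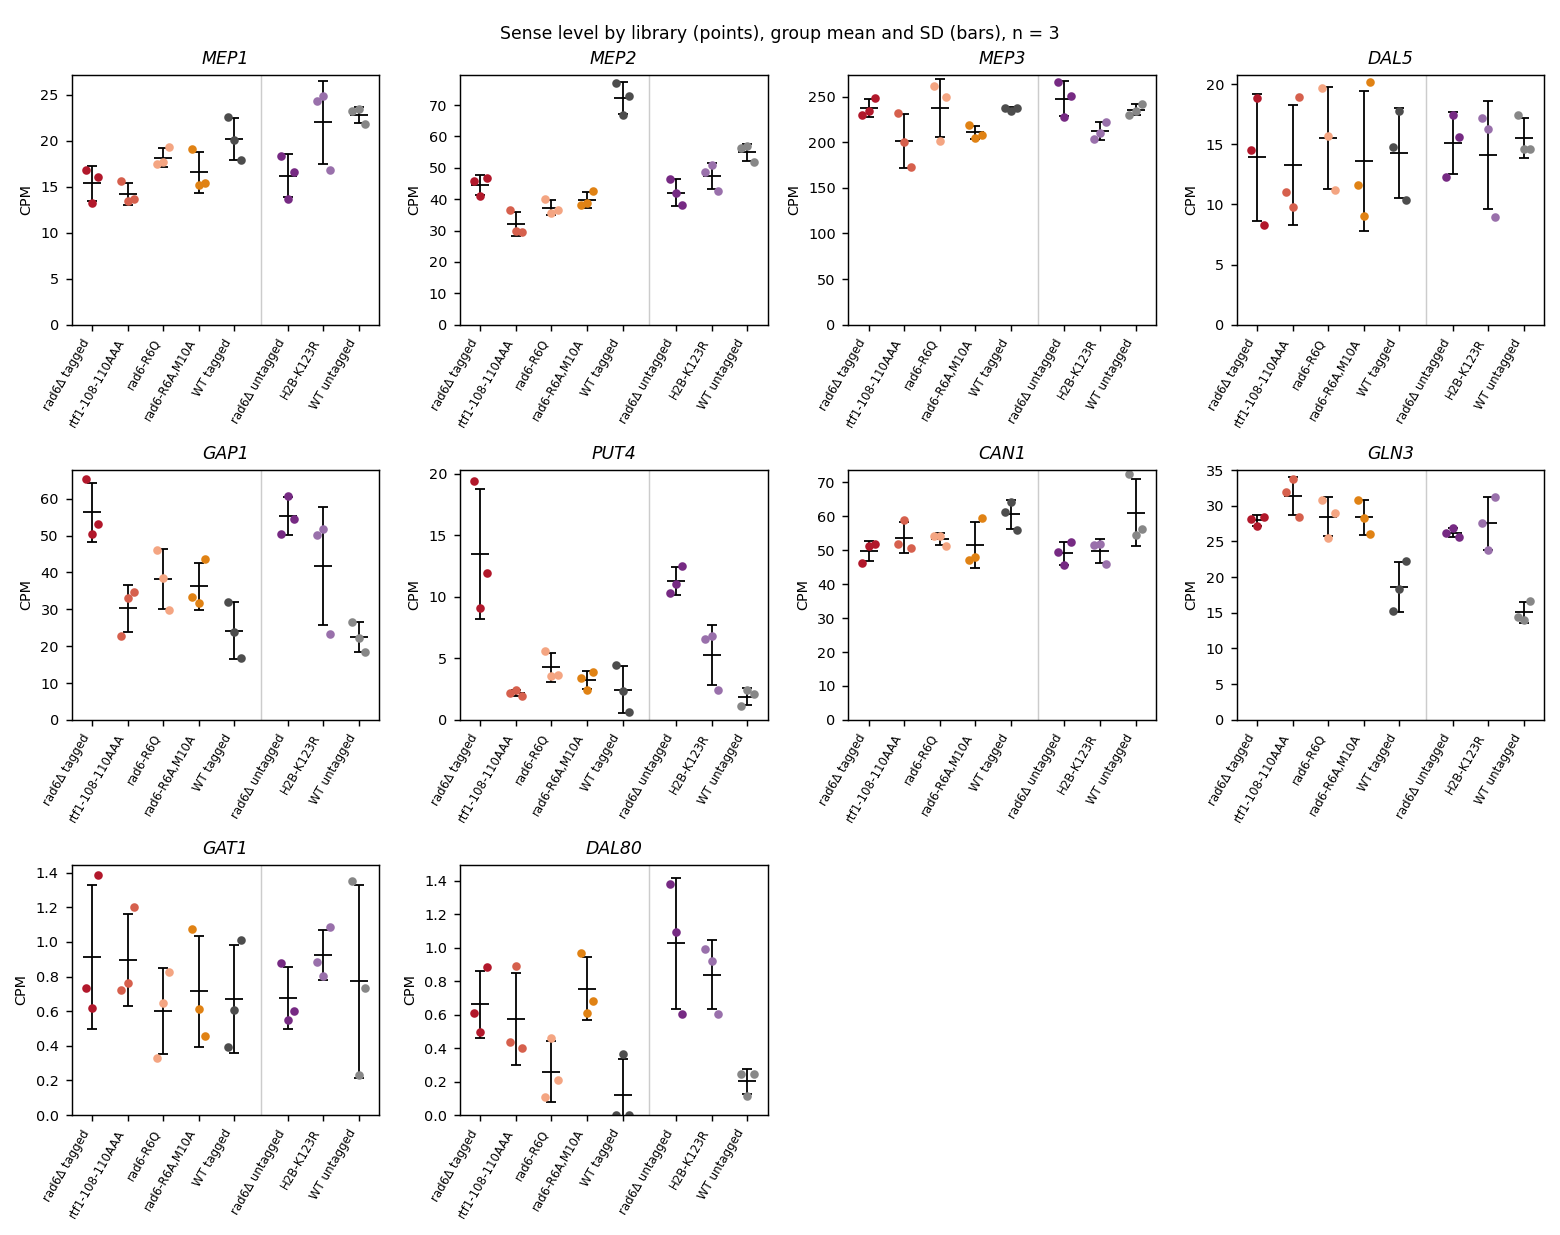
Sense level in CPM (linear axis from 0) of each of the 10 genes in every library (points), with the group mean and SD (bars, n = 3); the vertical line separates the tagged strains, left, from the untagged. GLN3 lies above and MEP2 below its wild type in every mutant library, GAP1 and PUT4 are highest in both RAD6 deletions, and the DAL5 groups overlap.

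Among the GATA factors, GLN3, the main activator of the pathway (YER040W, chromosome V, 229795 to 231987, plus strand), rose in all 6 mutants. Its level was 28.2, 27.1 and 28.5 CPM in rad6Δ tagged, 32.0, 33.7 and 28.5 CPM in rtf1-108-110AAA, 30.8, 25.5 and 29.1 CPM in rad6-R6Q and 30.9, 28.2 and 26 CPM in rad6-R6A,M10A, against 15.2, 18.4 and 22.2 CPM in WT tagged. Without tags it was 26.2, 26.9 and 25.6 CPM in rad6Δ untagged and 27.7, 23.8 and 31.2 CPM in H2B-K123R, against 14.5, 14 and 16.7 CPM in WT untagged. Every mutant library was above every library of its wild type, and in order of mean level each mutant group overlapped the next. The log2 fold change was 0.75 ± 0.13 (SE) in rtf1-108-110AAA, 0.61 ± 0.13 for both rad6-R6A,M10A and rad6-R6Q, and 0.59 ± 0.14 for rad6Δ tagged. It was 0.87 ± 0.14 in H2B-K123R and 0.80 ± 0.14 for rad6Δ untagged. Adjusted p-values from edgeR ran from 6.25e-05 to 0.00222. A rise in all 6 mutants was called for 278 genes, 4.8% of those tested. GLN3 was called in the 6 comparisons under K. lactis scaling as well, and without any 1 library.

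GAT1, the second activator (YFL021W, chromosome VI, 95966 to 97498, plus strand), was barely expressed on the sense strand, with 2 to 12 counts per library. Its mean was 0.912 ± 0.415 CPM in rad6Δ tagged against 0.670 ± 0.313 CPM in WT tagged (SD, n = 3 each), and 0.925 ± 0.146 CPM in H2B-K123R and 0.676 ± 0.177 CPM for rad6Δ untagged against 0.772 ± 0.559 CPM in WT untagged. No difference was called by edgeR, with adjusted p-values from 0.524 to 0.910. The 95% intervals of the log2 change reached from -1.25 to 1.49 over the 6 mutants, so changes inside these intervals could have been missed at this depth. The sign turned under K. lactis scaling in rad6Δ untagged and rad6-R6Q, and with 1 library left out in 4 mutants.

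DAL80, the GATA repressor (YKR034W, chromosome XI, 506898 to 507707, plus strand), had 115 sense counts over the 24 libraries. It had 5, 4 and 7 counts in rad6Δ tagged, 3, 7 and 4 for rtf1-108-110AAA, 9, 5 and 6 for rad6-R6A,M10A and 1, 5 and 2 for rad6-R6Q, against 0, 3 and 0 in WT tagged. In the untagged strains it had 9, 8 and 5 counts in H2B-K123R and 11, 10 and 6 for rad6Δ untagged, against 2, 1 and 2 in WT untagged. Both wild types were low throughout, and by counts the libraries of rad6Δ tagged, rad6Δ untagged, H2B-K123R and rad6-R6A,M10A were all above those of their wild type. In CPM these strains and rtf1-108-110AAA were, the latter at 0.434, 0.890 and 0.401 CPM against at most 0.365 CPM in WT tagged. Pooled over libraries and scaled, the ratio to the wild type was 5.23 for rad6Δ tagged (95% interval 1.5 to 28, counting error only), 4.48 for rtf1-108-110AAA (1.25 to 24.3), 6.04 for rad6-R6A,M10A (1.79 to 31.7) and 2.15 for rad6-R6Q (0.515 to 12.6). It was 4.21 for H2B-K123R (1.55 to 14.2) and 4.97 for rad6Δ untagged (1.89 to 16.5). In an edgeR fit without the filter, adjusted p in the order just given was 0.0223, 0.0639, 0.018, 0.436, 0.028 and 0.0061, but both wild-type groups held 3 or fewer counts in every library. The unstranded table held 66 DAL80 counts and the stranded ones 115 (sense) and 59 (antisense), so the unstranded table held fewer than the sense table alone and the values are uncertain.

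MEP2, an ammonium permease that also acts as an ammonium sensor in filamentous growth (YNL142W, chromosome XIV, 357453 to 358952, plus strand), fell in 5 of the 6 mutants. Its level was 45.9, 40.9 and 46.8 CPM in rad6Δ tagged, 36.6, 30.01 and 29.7 CPM in rtf1-108-110AAA, 40.0, 35.5 and 36.5 CPM in rad6-R6Q and 38.1, 38.6 and 42.6 CPM in rad6-R6A,M10A, against 76.9, 66.9 and 72.9 CPM in WT tagged. Without tags it was 46.4, 41.9 and 38.0 CPM in rad6Δ untagged and 48.8, 50.8 and 42.7 CPM in H2B-K123R, against 56.2, 56.9 and 51.9 CPM in WT untagged. Every mutant library was below every library of its wild type, and the lowest group was rtf1-108-110AAA. The log2 fold change was -1.17 ± 0.11 (SE; edgeR adjusted p = 2.33e-07) in rtf1-108-110AAA, -0.95 ± 0.11 (1.91e-06) in rad6-R6Q, -0.86 ± 0.11 (8.32e-06) in rad6-R6A,M10A, -0.70 ± 0.11 (2.65e-05) in rad6Δ tagged and -0.39 ± 0.11 (0.00673) in rad6Δ untagged. In H2B-K123R the value was -0.21 (95% interval -0.44 to 0.01, edgeR adjusted p = 0.157). With K. lactis scaling the fall in rad6Δ untagged was -0.15 and not called (edgeR adjusted p = 0.266), and in the 4 tagged mutants it kept its call at -0.39 to -0.93. The wild types themselves did not overlap: WT tagged was higher than WT untagged by 0.39 on the log2 scale, which edgeR did not call (adjusted p = 0.125). A fall in at least 5 of the 6 mutants was called for 7.34% of tested genes.

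MEP1, a second ammonium permease (YGR121C, chromosome VII, 731449 to 732927, minus strand), was lower in 3 mutants by smaller amounts. Its level was 16.8, 13.2 and 16 CPM in rad6Δ tagged and 15.6, 13.5 and 13.6 CPM in rtf1-108-110AAA, against 22.5, 20.1 and 17.9 CPM in WT tagged, and 18.3, 13.7 and 16.6 CPM in rad6Δ untagged against 23.2, 23.5 and 21.8 CPM in WT untagged. These groups did not overlap their wild type. It was 19.1, 15.2 and 15.4 CPM for rad6-R6A,M10A, 17.4, 17.7 and 19.3 CPM for rad6-R6Q and 24.3, 24.9 and 16.8 CPM for H2B-K123R, each overlapping its wild type. The log2 fold change was -0.39 ± 0.16 (SE) in rad6Δ tagged, -0.50 ± 0.15 in rad6Δ untagged and -0.50 ± 0.16 in rtf1-108-110AAA, with edgeR adjusted p of 0.0473, 0.0121 and 0.0215. The call in rad6Δ tagged was lost without replicate 2 or 3 of that group, and without WT tagged replicate 1 or 2, with values of -0.43 to -0.29. It was also lost without the filter (-0.40, edgeR adjusted p = 0.0516) and in a fit of the compared groups alone (-0.39, 0.0587). In rad6Δ untagged it was lost without replicate 2 of that group (-0.39, edgeR adjusted p = 0.0796), and in rtf1-108-110AAA without its replicate 2 or 3 or WT tagged replicate 1 or 2 (-0.49 to -0.45) and in a fit of the compared groups alone (-0.49, adjusted p = 0.0671). All 3 calls were lost with K. lactis scaling, at -0.09, -0.26 and -0.27. The log2 value was -0.28 for rad6-R6A,M10A, -0.15 for rad6-R6Q and -0.05 for H2B-K123R, none called. That of rad6-R6Q was 0.04 with K. lactis scaling, and that of H2B-K123R was 0.12 without H2B-K123R replicate 3.

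MEP3 (YPR138C, chromosome XVI, 810984 to 812453, minus strand) was the most abundant of the 10 genes per length, at 155 CPM per kb of coding sequence averaged over all libraries, beside 30.9 for MEP2 and 12.3 for MEP1. It averaged 237 ± 9.6 CPM in rad6Δ tagged, 202 ± 29.6 CPM in rtf1-108-110AAA, 238 ± 31.8 CPM in rad6-R6Q and 211 ± 7.34 CPM in rad6-R6A,M10A, against 236 ± 1.86 CPM in WT tagged (SD, n = 3 each). Without tags it averaged 248 ± 19.5 CPM in rad6Δ untagged and 212 ± 9.75 CPM in H2B-K123R, against 236 ± 5.92 CPM in WT untagged. The log2 values lay between -0.23 and 0.07, and edgeR called none of them. Leaving out rtf1-108-110AAA replicate 1 gave a called -0.32 in that mutant (edgeR adjusted p = 0.021), and K. lactis scaling gave called rises of 0.31 in both RAD6 deletions (adjusted p = 0.0176 tagged and 0.0198 untagged). Under that scaling the median of all genes was 0.33 in the tagged deletion and 0.24 in the untagged, with 40.4% and 35.7% of genes called higher. The coding sequences of MEP1 and MEP3 were 73.2% identical over 1301 aligned bases, and no member had a copy of 90% identity or more.

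GAP1, the general amino acid permease (YKR039W, chromosome XI, 515063 to 516871, plus strand), rose in both RAD6 deletions and in H2B-K123R. Its level was 65.4, 50.4 and 53.1 CPM in rad6Δ tagged, 22.8, 33.2 and 34.6 CPM in rtf1-108-110AAA, 46.0, 38.6 and 29.9 CPM in rad6-R6Q and 33.4, 31.7 and 43.5 CPM in rad6-R6A,M10A, against 32.1, 23.7 and 16.7 CPM in WT tagged. Without tags it was 50.4, 60.6 and 54.6 CPM in rad6Δ untagged and 50.1, 51.7 and 23.3 CPM in H2B-K123R, against 26.6, 22.2 and 18.5 CPM in WT untagged. Both deletions were above their wild types in every library, whereas the third H2B-K123R library lay within the WT untagged range. The log2 fold change was 1.22 ± 0.26 (SE; edgeR adjusted p = 0.000849) in rad6Δ tagged, 1.30 ± 0.26 (0.000478) in rad6Δ untagged and 0.90 ± 0.26 (0.0155) in H2B-K123R. The H2B-K123R call was lost without H2B-K123R replicate 1 (0.75, adjusted p = 0.079) or 2 (0.70, 0.0931), without WT untagged replicate 3 (0.78, 0.0725), and in an edgeR fit of the compared groups alone (0.90, 0.0545). The value was 0.66 (95% interval 0.11 to 1.21, edgeR adjusted p = 0.064) for rad6-R6Q, 0.59 (0.04 to 1.13, 0.109) for rad6-R6A,M10A and 0.33 (-0.22 to 0.88, 0.402) for rtf1-108-110AAA. The rad6-R6Q value was called without rad6-R6Q replicate 3 (0.79, adjusted p = 0.0487) or WT tagged replicate 1 (0.88, 0.0368), with DESeq2 (0.66, 0.0414) and with K. lactis scaling (0.85, 0.0258), which also called rad6-R6A,M10A (0.85, 0.0255).

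PUT4, the high-affinity proline permease (YOR348C, chromosome XV, 986899 to 988782, minus strand), had the largest rises of the 9 tested members in the same 3 strains. Its level was 19.4, 9.13 and 12 CPM in rad6Δ tagged, 2.17, 2.42 and 1.91 CPM in rtf1-108-110AAA, 5.63, 3.60 and 3.62 CPM in rad6-R6Q and 3.44, 2.45 and 3.87 CPM in rad6-R6A,M10A, against 4.45, 2.31 and 0.631 CPM in WT tagged. Without tags it was 10.3, 11.1 and 12.6 CPM in rad6Δ untagged and 6.61, 6.79 and 2.42 CPM in H2B-K123R, against 1.10, 2.45 and 2.08 CPM in WT untagged. The deletion libraries stood above every other library of the series. The third H2B-K123R library fell within the WT untagged range, and the 3 tagged substitution mutants overlapped WT tagged. The log2 fold change was 2.46 ± 0.42 (SE; edgeR adjusted p = 8.36e-05) in rad6Δ tagged, 2.58 ± 0.44 (7.06e-05) in rad6Δ untagged and 1.48 ± 0.46 (0.0215) in H2B-K123R. Without H2B-K123R replicate 1 or 2 or WT untagged replicate 1 the last was 1.29, 1.25 and 1.22 and not called (edgeR adjusted p = 0.0855, 0.0907 and 0.102). The values were 0.79 (95% interval -0.15 to 1.74) in rad6-R6Q, 0.41 (-0.57 to 1.40) in rad6-R6A,M10A and -0.19 (-1.24 to 0.87) in rtf1-108-110AAA. The WT tagged libraries spread widely, from 5 to 34 counts, and without WT tagged replicate 1 the rad6-R6Q value was 1.48 and called (edgeR adjusted p = 0.0402), and the rtf1-108-110AAA value 0.50. Its within-group SD of 0.55 on the log2 scale was larger than that of 98.5% of tested genes, where the median was 0.20.

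CAN1 (YEL063C, chromosome V, 31694 to 33466, minus strand) was lower than its wild type in all 6 mutants by log2 values of -0.31 to -0.17, of which 1 passed. Its level was 46.4, 51.2 and 51.8 CPM in rad6Δ tagged, 51.8, 58.9 and 50.6 CPM for rtf1-108-110AAA, 47.2, 47.9 and 59.5 CPM for rad6-R6A,M10A and 54.3, 54.2 and 51.2 CPM for rad6-R6Q, against 61.3, 64.3 and 56 CPM in WT tagged. Of these, rad6Δ tagged and rad6-R6Q did not overlap WT tagged. It was 51.5, 51.9 and 45.8 CPM in H2B-K123R, below every WT untagged library, and was not called (log2 -0.29, edgeR adjusted p = 0.0691). It was 49.4, 45.6 and 52.4 CPM in rad6Δ untagged against 72.3, 54.5 and 56.2 CPM in WT untagged, a log2 change of -0.31 ± 0.12 (SE, edgeR adjusted p = 0.0363). The groups did not overlap, but the call was lost without rad6Δ untagged replicate 1 (-0.31, edgeR adjusted p = 0.0725) or 2 (-0.26, 0.14), without WT untagged replicate 1 (-0.17, 0.279) and with K. lactis scaling (-0.07, 0.689). Without WT untagged replicate 2, H2B-K123R was called at -0.37 (edgeR adjusted p = 0.0419). DESeq2 called rad6Δ tagged at -0.29 (adjusted p = 0.0492). With K. lactis scaling the values in the 4 tagged mutants lay between 0.002 and 0.063.

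DAL5, the allantoate permease and a standard reporter of nitrogen catabolite repression (YJR152W, chromosome X, 719666 to 721297, plus strand), gave 13.9 ± 5.3 CPM in rad6Δ tagged, 13.2 ± 4.98 CPM in rtf1-108-110AAA, 15.5 ± 4.25 CPM in rad6-R6Q and 13.6 ± 5.82 CPM in rad6-R6A,M10A, against 14.3 ± 3.73 CPM in WT tagged (SD, n = 3 each). Its values were 15.1 ± 2.6 CPM in rad6Δ untagged and 14.1 ± 4.5 CPM in H2B-K123R, against 15.5 ± 1.64 CPM in WT untagged. Libraries of every mutant overlapped those of the wild type, and the range over the 24 libraries was 8.32 to 20.2 CPM. Its within-group SD of 0.44 on the log2 scale exceeded that of 95.1% of tested genes, and the 95% intervals of its log2 change reached from -0.82 to 0.80. Changes inside those intervals could have been missed here. The log2 values, -0.13 to 0.11, turned sign under K. lactis scaling in rad6Δ tagged, rad6Δ untagged, rtf1-108-110AAA and rad6-R6A,M10A, and in all 6 mutants without 1 library or another.

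**Figure D2:**
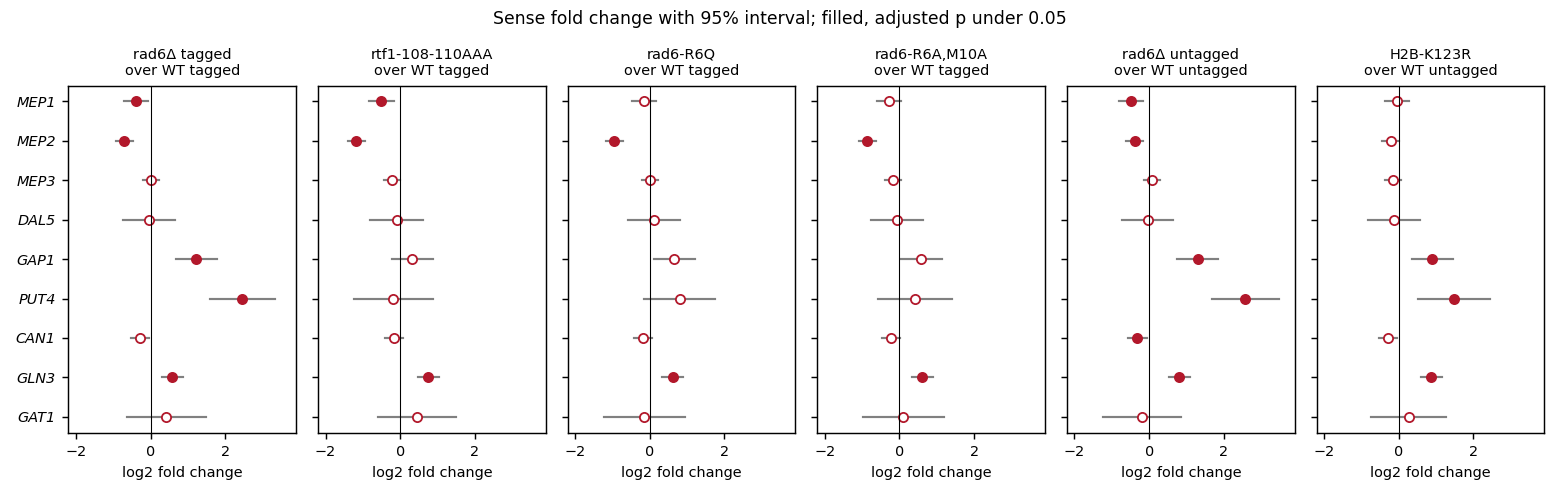
Log2 fold change of the sense level for the 9 tested genes in each mutant over the wild type of its tag status, with 95% intervals (lines); filled points were called at an adjusted p under 0.05 by edgeR and open points were not. PUT4 reaches 2.46 and 2.58 in the RAD6 deletions and GLN3 is filled in all 6 panels.

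Substitutions were also set against the deletion of the same tag status. PUT4 was lower than in rad6Δ tagged by -1.66 (95% interval -2.45 to -0.87, edgeR adjusted p = 0.00509) in rad6-R6Q, by -2.04 (-2.87 to -1.22, 0.00211) in rad6-R6A,M10A and by -2.64 (-3.53 to -1.76, 0.000235) in rtf1-108-110AAA, on the log2 scale. It was the only member called in rad6-R6Q, beside 16.4% of all genes (8.22% lower), and the only one called for rad6-R6A,M10A, beside 8.55% (4.84% lower). For rtf1-108-110AAA edgeR called 3 members lower, beside 14.3% of all genes (7.89% lower): PUT4, GAP1 (-0.89 ± 0.26, adjusted p = 0.0234) and MEP2 (-0.48 ± 0.11, adjusted p = 0.00551). The GAP1 call was lost without rad6Δ tagged replicate 1 (-0.75, edgeR adjusted p = 0.116) or 3 (-0.92, 0.0505) or rtf1-108-110AAA replicate 1 (-0.71, 0.107), and the MEP2 call in a fit of the compared groups alone (-0.47, 0.0597). The GLN3 value against rad6Δ tagged was 0.02 for rad6-R6Q, 0.02 for rad6-R6A,M10A and 0.17 for rtf1-108-110AAA, none called, with intervals from -0.25 to 0.44.

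In H2B-K123R against rad6Δ untagged, edgeR called 0 of 9 members, beside 10.5% of all genes. There 3 had an unadjusted p under 0.05. MEP1 was at 0.45 (95% interval 0.13 to 0.76, edgeR adjusted p = 0.0666), and it was called by DESeq2 (0.46, adjusted p = 0.0442), with the replicate block (0.44, edgeR adjusted p = 0.0441) and without H2B-K123R replicate 3 (0.62, 0.0125). PUT4 was at -1.09 (-1.88 to -0.31, edgeR adjusted p = 0.0679), and it was called with K. lactis scaling (-1.29, 0.0257) and with the replicate block (-1.15, 0.0425). MEP3 was at -0.23 (-0.44 to -0.01, edgeR adjusted p = 0.178) and GAP1 at -0.40 (-0.93 to 0.13, 0.347). Between the tagged substitution mutants, edgeR and DESeq2 called 0 members in each of 3 comparisons. In rad6-R6Q against rad6-R6A,M10A edgeR called 2 of the 5790 genes (0.0345%) and DESeq2 3, and 0 members had an unadjusted p under 0.05. In rtf1-108-110AAA against rad6-R6A,M10A edgeR called 4 genes (0.0691%) and DESeq2 7, and 1 member had an unadjusted p under 0.05. In rtf1-108-110AAA against rad6-R6Q both tools called 0 genes (0%), and 3 members had an unadjusted p under 0.05. MEP2 was at -0.31 (-0.54 to -0.08) in rtf1-108-110AAA against rad6-R6A,M10A, and PUT4 at -0.98 (-1.94 to -0.02) in rtf1-108-110AAA against rad6-R6Q.

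In WT tagged against WT untagged, edgeR called 0 members, beside 0.674% of all genes. MEP2 and GLN3 had an unadjusted p under 0.05, with WT tagged higher by 0.39 and 0.31 on the log2 scale, and DESeq2 called MEP2 (0.39, adjusted p = 0.0456). The effect of deleting RAD6 was not called different between tagged and untagged strains for any of the 9 members, by edgeR or DESeq2, and 0 had an unadjusted p under 0.05, beside 0.276% of all genes called by edgeR. The difference of the 2 effects was -0.31 (95% interval -0.63 to 0.01) for MEP2 and -0.12 (-1.40 to 1.16) for PUT4.

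On the antisense strand, CAN1, GAT1 and MEP3 carried the calls, and levels were low. Antisense counts of CAN1 were 18, 12 and 12 in rad6Δ tagged, 7, 11 and 4 for rtf1-108-110AAA, 11, 9 and 9 for rad6-R6A,M10A and 4, 15 and 10 for rad6-R6Q, against 3, 4 and 1 in WT tagged. Without tags the counts were 12, 7 and 9 for H2B-K123R and 17, 12 and 9 for rad6Δ untagged, against 0, 1 and 2 in WT untagged. Every library of both deletions, H2B-K123R and rad6-R6A,M10A had more than every library of its wild type, and rtf1-108-110AAA and rad6-R6Q each had 1 library equal to the highest of WT tagged. The ratio to the wild type, pooled and scaled, was 5.15 for rad6Δ tagged (95% interval 2.39 to 12.7, counting error only), 11.7 for rad6Δ untagged (3.7 to 59), 8.92 for H2B-K123R (2.76 to 45.9) and 3.28 for rad6-R6A,M10A (1.46 to 8.31). These 4 were called by edgeR, with adjusted p of 0.0028, 0.000259, 0.00117 and 0.0453. The ratio was 2.64 in rtf1-108-110AAA (1.13 to 6.86) and 2.92 for rad6-R6Q (1.3 to 7.38), with edgeR adjusted p of 0.0988 and 0.0717.

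The rad6-R6A,M10A call for CAN1 antisense was lost without any 1 of the 6 libraries compared, with log2 values of 1.30 to 2.05 against 1.67 with all, and it was also lost without the filter (edgeR adjusted p = 0.0642) and with DESeq2 (adjusted p = 0.0913). The other pair of tagged substitution mutants was called without rtf1-108-110AAA replicate 3 (edgeR adjusted p = 0.0377) or rad6-R6Q replicate 1 (adjusted p = 0.0381), and with K. lactis scaling (0.0497 and 0.0445). As a share of the gene's sense and antisense counts, CAN1 antisense was 3.39% ± 0.98 in rad6Δ tagged against 0.54% ± 0.28 in WT tagged. It was 2.12% ± 0.52 in H2B-K123R and 2.88% ± 1.22 for rad6Δ untagged against 0.22% ± 0.22 in WT untagged (SD, n = 3 each). Over all genes this share was 5.2% to 5.8% per library.

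GAT1 was the member with more antisense than sense counts, 491 against 159 over all libraries. Its antisense level was 2.68, 3.08 and 3.02 CPM in rad6Δ tagged against 1.70, 1.70 and 0.883 CPM in WT tagged. It was 2.63, 2.85 and 4.42 CPM in rad6Δ untagged and 2.86, 4.03 and 3.14 CPM in H2B-K123R, against 1.72, 2.10 and 0.979 CPM in WT untagged. The groups did not overlap. GAT1 antisense rose by 1.03 ± 0.33 (SE) on the log2 scale in rad6Δ tagged, by 1.04 ± 0.32 in the untagged deletion and by 1.05 ± 0.32 in H2B-K123R, with edgeR adjusted p of 0.0196, 0.0135 and 0.0119. The calls were lost without any 1 of a few libraries: without WT tagged replicate 3 (0.78) or rad6Δ tagged replicate 2 (0.99), without rad6Δ untagged replicate 3 (0.78) or WT untagged replicate 3 (0.79), and without H2B-K123R replicate 2 (0.88) or WT untagged replicate 3 (0.80). Its level was 2.79, 2.81 and 2.28 CPM for rad6-R6A,M10A, 1.66, 2.399 and 1.86 CPM for rad6-R6Q and 1.59, 2.42 and 1.003 CPM for rtf1-108-110AAA. Of these strains, only rad6-R6A,M10A lay above every WT tagged library. The log2 change was 0.87 for rad6-R6A,M10A, 0.47 for rad6-R6Q and 0.20 for rtf1-108-110AAA, none called by edgeR (adjusted p = 0.0649, 0.352 and 0.72). With K. lactis scaling the first was 1.13 and called (edgeR adjusted p = 0.0194), as it was with the replicate block (0.88, 0.0485), and DESeq2 did not call rad6Δ tagged (1.03, adjusted p = 0.0521). In rtf1-108-110AAA the value was -0.17 without its replicate 2 and -0.05 without WT tagged replicate 3. The table that ignores strand held 417 GAT1 counts, fewer than both strands together, and from it edgeR called GAT1 higher in rad6Δ untagged (0.91, adjusted p = 0.0203) and in H2B-K123R (0.96, 0.0233).

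MEP3 antisense was called in 1 strain. It was 4.41, 5.52 and 3.63 CPM in H2B-K123R against 1.35, 0.700 and 2.20 CPM in WT untagged, with no overlap and a log2 rise of 1.67 ± 0.32 (SE, edgeR adjusted p = 0.000184), while the sense log2 value was -0.15 there. It was 0.54 in rad6Δ untagged, -0.15 in rad6Δ tagged, 0.66 for rtf1-108-110AAA, 0.19 for rad6-R6A,M10A and 0.48 for rad6-R6Q, none called. The rtf1-108-110AAA value was called without its replicate 1 (edgeR adjusted p = 0.0415) and with K. lactis scaling (0.0193), and the rad6Δ tagged value was 0.16 with that scaling. Its level was 2.32, 2.59 and 3.53 CPM in rad6Δ tagged, 3.33, 4.96 and 6.32 CPM for rtf1-108-110AAA, 4.08, 3.18 and 3.42 CPM for rad6-R6A,M10A, 3.53, 4.15 and 5.38 CPM for rad6-R6Q and 1.63, 2.63 and 1.91 CPM for rad6Δ untagged, each overlapping its wild type. WT tagged, at 3.41, 2.31 and 3.66 CPM, lay above WT untagged in all 3 libraries. Called antisense members, all of them higher, were thus 2 of 5 in rad6Δ tagged, beside 28.2% of all tested antisense genes (15.3% higher), and 2 in the untagged deletion, beside 29.5% (22.7% higher). They were 3 for H2B-K123R, beside 33% (28.8% higher), and 1 for rad6-R6A,M10A, beside 18.7% (10.5% higher). For rtf1-108-110AAA edgeR called 0, beside 20.4% (11% higher), with 2 members at an unadjusted p under 0.05. For rad6-R6Q it called 0, beside 21.5% (9.94% higher), with 3 members at an unadjusted p under 0.05, and DESeq2 called 0 in both.

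**Figure D3:**
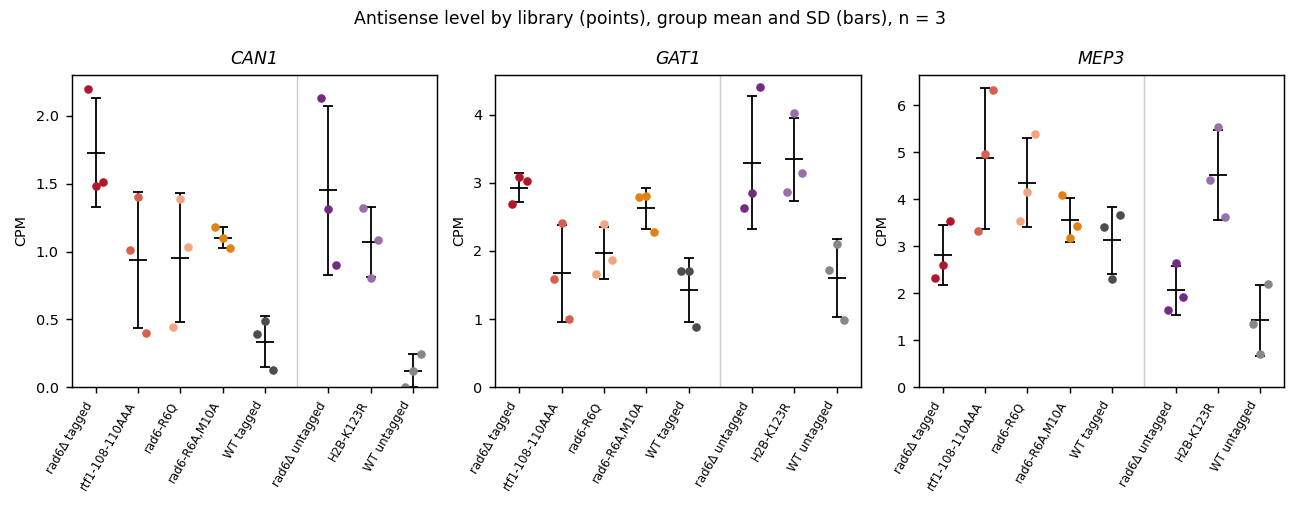
Antisense level in CPM (linear axis from 0) of CAN1, GAT1 and MEP3 in every library (points), with the group mean and SD (bars, n = 3). CAN1 and GAT1 are above the wild type in every library of both RAD6 deletions, H2B-K123R and rad6-R6A,M10A, and MEP3 stands apart from WT untagged in H2B-K123R.

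Among themselves, the members moved in more than 1 way. Over the 24 libraries the log2 levels of GAP1 and PUT4 had a Pearson r of 0.90 and those of MEP1 and MEP2 0.64, while GLN3 had r of -0.76 with MEP2, -0.65 with MEP1 and 0.42 with GAP1. DAL5 had r of 0.31 with GAP1 and 0.17 with PUT4. These describe libraries that share strains and scaling. The tested genes outside the list most like GAP1 were GLC3, a glycogen branching enzyme (r = 0.95), PRB1, a vacuolar protease (0.93), and DCS1 (0.92). The levels of PUT4 were most like those of YMR196W, MSC1 and GID11 (0.91, 0.91 and 0.90), those of GLN3 like VID27, SER3, an enzyme of serine synthesis, and PKP2 (0.93, 0.93 and 0.93), and those of MEP2 like ARA2, YGL159W and SGE1 (0.90, 0.89 and 0.88). For GAT1 the highest r was 0.63, with ARP1.

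In order of group mean, PUT4 and GAP1 were both highest in rad6Δ tagged, followed by the untagged deletion, H2B-K123R, rad6-R6Q and then rad6-R6A,M10A. For PUT4 only the step between rad6Δ untagged and H2B-K123R separated neighbours without overlap, and for GAP1 no step did. For MEP2 the steps from WT tagged to WT untagged and from WT untagged to H2B-K123R separated neighbours, and for GLN3 the step between the lowest mutant, rad6Δ untagged, and WT tagged did.

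The rest of the pathway was followed in 51 genes in 6 lists, all tested. These lists were also chosen with earlier results of these data known. Called rises and falls numbered 17 and 14 in rad6Δ tagged, 60.8% of the list beside 41.7% of all genes, and 10 and 10 for rtf1-108-110AAA, 39.2% beside 24.5%. They numbered 11 and 14 for rad6-R6A,M10A, 49% beside 25.2%, and 16 and 10 for rad6-R6Q, 51% beside 29.1%. Without tags they numbered 17 and 6 in H2B-K123R, 45.1% beside 26.3%, and 14 and 11 for rad6Δ untagged, 49% beside 42.8%. With K. lactis scaling the calls of the list and of all genes both shifted towards rises. The list then had 23 rises and 6 falls in rad6Δ tagged, beside 40.4% of all genes higher and 8.17% lower, 19 and 4 for rtf1-108-110AAA (27.2% and 4.21%), 22 and 3 for rad6-R6A,M10A (30.1% and 3.78%) and 22 and 5 for rad6-R6Q (25.9% and 5.94%). It had 18 and 3 in H2B-K123R (16% and 8.27%) and 21 and 3 for rad6Δ untagged (35.7% and 9.9%). With TMM, the medians of the 51 log2 values lay between -0.01 and 0.17, and those of all genes between -0.02 and 0.02. Of all tested genes, 4.8% were called higher in all 6 mutants and 4.97% lower in all 6. The pathway genes named below were largely picked by their calls in these data.

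DAL1, allantoinase, the first enzyme of allantoin breakdown, rose in all 6 mutants by log2 values of 1.36 to 2.34, reaching 11 ± 0.18 CPM in H2B-K123R against 2.17 ± 0.28 CPM in WT untagged (SD, n = 3 each). DAL4, the allantoin permease, in contrast fell in the 4 tagged mutants by log2 values of -1.11 to -0.68, but 3 of these 4 calls depended on single libraries. The rad6Δ tagged call (-0.68) was lost with the replicate block (-0.68, edgeR adjusted p = 0.0512), with DESeq2 (-0.69, adjusted p = 0.0689) and with K. lactis scaling (-0.37, edgeR adjusted p = 0.288). The rad6-R6A,M10A call was lost with the block (-0.73, edgeR adjusted p = 0.0519), with DESeq2 (-0.73, adjusted p = 0.075), with K. lactis scaling (-0.46, edgeR adjusted p = 0.21) and with the compared groups alone (-0.74, 0.0765), and that of rad6-R6Q with the compared groups alone (-0.92, 0.0507). With libraries left out, the rad6Δ tagged call was lost without any 1 of its 6 (-0.73 to -0.62), the rad6-R6A,M10A call (-0.74) without any 1 but rad6-R6A,M10A replicate 3 (-0.79 to -0.53), and the rad6-R6Q call (-0.94) without rad6-R6Q replicate 1 or 3 (both -0.81). In the list of 8 genes for allantoin and urea, 3 rose and 1 fell in rad6Δ tagged, 2 and 0 did so in the untagged deletion, 5 and 0 in H2B-K123R, and 2 and 1 in each of the tagged substitution mutants. Over all genes, edgeR called 11.9% to 22.3% higher and 12.3% to 20.5% lower, depending on the mutant. DAL2, allantoicase, was called in no mutant. PUT1, proline oxidase, rose in all 6 by 0.71 to 2.09, whereas PUT2, the next enzyme of proline breakdown, was called in none (-0.13 to 0.10). Its call in rtf1-108-110AAA (0.71) was lost without rtf1-108-110AAA replicate 1 (0.70) or 3 (0.66) or WT tagged replicate 1 (0.67) or 2 (0.63), and with unstranded counts (0.55).

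The genes for 4-aminobutyrate use split between enzymes and permease. UGA3, the activator of this pathway, rose in all 6 mutants by 0.56 to 1.17, the dehydrogenase UGA2 by 0.46 to 1.33, and the transaminase UGA1 in 5 by 0.39 to 1.01. The UGA2 call in rtf1-108-110AAA was lost in a fit of the compared groups alone (0.48, edgeR adjusted p = 0.057). The permease UGA4 fell in 5 by -1.62 to -0.71, lowest in rtf1-108-110AAA at 3.13 ± 0.17 CPM against 9.60 ± 0.89 CPM in WT tagged. The UGA4 call in rad6Δ tagged (-0.71) was lost without rad6Δ tagged replicate 2 (-0.51) and with K. lactis scaling (-0.41), and the UGA1 call in rad6-R6A,M10A (0.39) without rad6-R6A,M10A replicate 1 (0.34) or WT tagged replicate 2 (0.31) or 3 (0.36). CAR2, ornithine transaminase, fell in rad6Δ untagged alone among the calls, by -1.36.

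Of 5 ammonium assimilation genes, 4 rose and 1 fell for rad6-R6Q, and 3 rose and 1 fell in each of the other 5 mutants. Beside these, 11.9% to 22.3% of all genes were called higher, by mutant, and 12.3% to 20.5% lower. GDH1 and GDH3, the NADP-dependent glutamate dehydrogenases, rose in all 6 mutants, by 0.31 to 0.96 and by 0.78 to 1.13. GDH1 stood at 1211 ± 75.2 CPM in rad6Δ tagged against 624 ± 42 CPM in WT tagged, but its H2B-K123R call (0.31) was lost without any 1 of 5 of the 6 libraries, at 0.29 to 0.34, and with unstranded counts (0.29). GLN1, glutamine synthetase, rose in 5 by 0.74 to 0.96, and in H2B-K123R its value was 0.29 and not called (edgeR adjusted p = 0.0648). GDH2, the NAD-dependent glutamate dehydrogenase, rose in H2B-K123R by 0.98 and in rad6-R6Q by 0.41, and was not called in the other 4 mutants (0.08 to 0.30). GLT1, glutamate synthase, fell in all 6 by -0.72 to -0.41, to 2009 ± 100.3 CPM in rad6Δ tagged against 3303 ± 174 CPM in WT tagged, and its call in rad6Δ untagged was lost with K. lactis scaling (-0.17).

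Among 16 other amino acid permeases, called falls outnumbered rises in 5 mutants with TMM and in none with K. lactis scaling. There 3 rose and 10 fell in rad6Δ tagged (4 and 4 with K. lactis scaling), 3 and 8 in the untagged deletion (3 and 2) and 3 and 3 in H2B-K123R (3 and 1). The counts were 0 and 5 for rtf1-108-110AAA (1 and 1), 1 and 7 for rad6-R6A,M10A (3 and 1) and 2 and 5 for rad6-R6Q (5 and 1). The all-gene shares, by mutant, were 11.9% to 22.3% higher and 12.3% to 20.5% lower with TMM. With K. lactis scaling they were 16% to 40.4% and 3.78% to 9.9%. HIP1, the histidine permease, fell in all 6 by -0.71 to -0.29, TAT1, a tyrosine and branched-chain permease, by -0.60 to -0.31, and GNP1, a glutamine permease, by -0.46 to -0.38. With K. lactis scaling GNP1 and TAT1 were called in none of the 6, at -0.32 to -0.13 and -0.31 to -0.08, and HIP1 was not called in the 3 tagged substitution mutants (-0.10 to -0.05). With the compared groups alone HIP1 and TAT1 were not called in rtf1-108-110AAA and rad6-R6Q, nor GNP1 in the 3 tagged substitution mutants (-0.42 to -0.27 over these 7 values). The GNP1 and TAT1 calls also depended on single libraries: GNP1 lost its call in every mutant without at least 1 library (-0.46 to -0.30), and TAT1 did in H2B-K123R, rtf1-108-110AAA and rad6-R6Q (-0.33 to -0.24).

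Several permeases moved in fewer strains. AGP3 fell in the 4 tagged mutants by -1.01 to -0.60, of which that in rad6Δ tagged was -0.29 and not called with K. lactis scaling. It rose in H2B-K123R by 0.44, a call lost without H2B-K123R replicate 3 (0.38) or WT untagged replicate 2 (0.36), and was also 0.65 higher in WT tagged than in WT untagged (edgeR adjusted p = 0.0179). MMP1, which carries S-methylmethionine, fell by -1.20 in rad6Δ tagged, by -0.56 in the untagged deletion (-0.33 and not called with K. lactis scaling) and by -0.36 in rad6-R6A,M10A. The last call was lost without any 1 of 5 of the 6 libraries (-0.39 to -0.28), with the compared groups alone (-0.36) and with K. lactis scaling (-0.09). MMP1 was also 0.61 higher in WT tagged than in WT untagged (edgeR adjusted p = 0.0153). TAT2, the tryptophan permease, fell in 4 mutants, by -0.84 in rad6Δ tagged, -0.52 in rad6Δ untagged, -0.55 for rad6-R6A,M10A and -0.39 for rtf1-108-110AAA, and K. lactis scaling kept the call in rad6Δ tagged only (-0.29 to -0.14 in the other 3). The call in rtf1-108-110AAA was also lost without 1 of 4 libraries (-0.39 to -0.27) and with the compared groups alone (-0.37). The methionine permease MUP1 fell by -0.52 in rad6Δ tagged (-0.21 and not called with K. lactis scaling), by -0.58 in rad6Δ untagged and by -0.35 in rad6-R6Q. That last call was lost without rad6-R6Q replicate 1 (-0.25) or 2 (-0.37) or WT tagged replicate 1 (-0.30), with the compared groups alone (-0.33) and with K. lactis scaling (-0.16). The low-affinity methionine permease MUP3 rose by 1.39 in rad6Δ untagged, 1.18 in H2B-K123R, 0.76 in rad6Δ tagged and 0.67 in rad6-R6Q. The rad6Δ tagged call was lost without WT tagged replicate 3 (0.55). The rad6-R6Q call was lost without rad6-R6Q replicate 1 (0.62) or 3 (0.61) or WT tagged replicate 1 (0.71) or 3 (0.46), with the compared groups alone (0.68) and with unstranded counts (0.59). STP2, a factor of the SPS amino acid sensor, rose in all 6 mutants by 0.42 to 0.54.

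**Figure D4:**
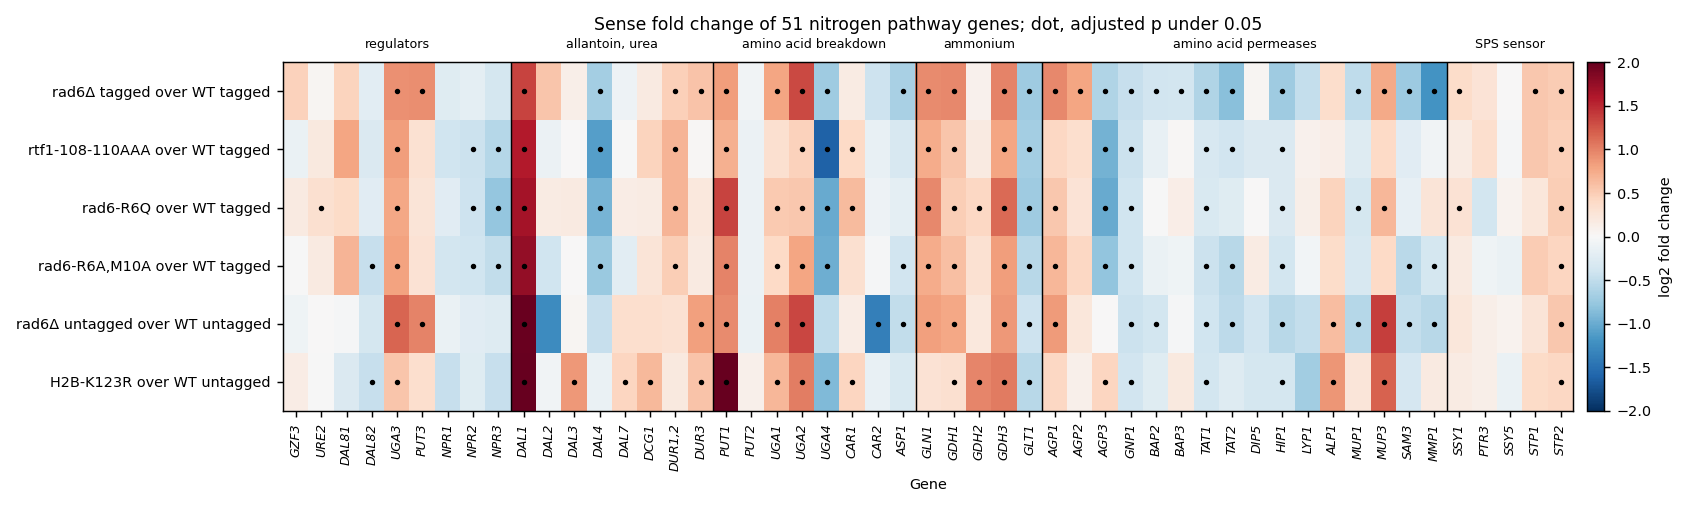
Log2 fold change of the sense level (colour, capped at 2 in either direction) of 51 nitrogen pathway genes, grouped by list (columns), in each mutant over the wild type of its tag status (rows); dots mark adjusted p under 0.05 by edgeR. DAL1, UGA3, UGA2, GDH3 and STP2 are red and dotted in every row, and GLT1, GNP1, TAT1 and HIP1 blue and dotted in every row.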

How the data were processed

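RNA of 24 yeast libraries was counted per gene. The authors deposited 4 tables of raw read counts (sense, antisense, unstranded and K. lactis spike-in). Per the submitters' processing notes, STAR 2.7.5a, featureCounts and DESeq2 were among the tools and R64 (sacCer3) was named as a build, and per the labels' protocols the library kit kept strand. The strand tables were used as labelled. Systematic names matched RefSeq for 5897 of 6571 genes and did not for 674.

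Counts were fitted in R 4.3.3 with edgeR 4.0.16 (limma 3.58.1), as 8 group means over all 24 libraries, with TMM factors, filterByExpr and the robust quasi-likelihood F test. Antisense counts were scaled with the sense library sizes and factors. P-values were Benjamini-Hochberg adjusted over all tested genes of a strand, and a call is an adjusted p under 0.05. SE is the absolute log2 change over the root of F. The code was tested on simulated data first. Count intervals are exact at 95%. They cover counting error only; no molecular identifiers are mentioned in the labels. Upstream windows were read with Python 3.11.15, coding sequences were compared with BLAST+ 2.17.0 and figures drawn with matplotlib 3.10.9. The authors' counting settings are not given in the sources used here, so counts of reads that overlap 2 genes may have been dropped.

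The 10 members and the pathway lists were chosen with earlier results of these data known. The pathway genes named are those called in the same direction in at least 5 of the 6 mutants and the 2 largest called rises and falls in each, and the genes like a member are the 3 with the highest r of log2 CPM. Alternatives were K. lactis scaling, median-of-ratios factors, no filter, DESeq2 1.42.0, the compared groups alone, unstranded counts, each library left out and the replicate number as a block. Replicate numbers are in the titles, but the labels do not say that they mark a shared day or batch. The sample numbers in the column headers run in blocks that follow the replicate numbers. The main fit leaves the replicate number out, so its p-values take no account of anything that same-numbered libraries share. Deviations of same-numbered libraries correlated over 0.1 in every pair for rad6Δ tagged and rad6-R6Q against WT tagged and for rad6-R6Q against rad6Δ tagged, and in 19 of all 42 pairs (r from -0.419 to 0.517).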

Additional observations from a re-analysis of the deposited data

How the results depend on the processing

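Counts of calls stayed within 1.5 times the value reported in 165 of 183 alternatives and in 150 of 168 with a library left out. These include comparisons with 0 called members, where a count that stayed at 0 was taken as unchanged, so they say little about single calls. Single values kept direction and call in 1222 of 1329 alternatives and in 1023 of 1176 with a library left out. With the compared groups alone, pathway calls were 12 against 20 for rtf1-108-110AAA and 15 against 26 for rad6-R6Q, member calls were 2 against 1 for rad6-R6A,M10A over rad6Δ tagged, and antisense member calls 1 against 2 in rad6Δ untagged and 0 against 1 for rad6-R6A,M10A over WT tagged. With K. lactis scaling, sense member calls were 2 against 1 for rad6-R6Q over rad6Δ tagged and 2 against 0 for H2B-K123R over rad6Δ untagged, and antisense ones 2 against 0 for rtf1-108-110AAA, 2 against 1 for rad6-R6A,M10A and 1 against 0 for rad6-R6Q. DESeq2 called 1 member against 0 between the wild types and 1 against 0 for H2B-K123R over rad6Δ untagged, and on the antisense strand 1 against 2 in rad6Δ tagged and 0 against 1 in rad6-R6A,M10A. Without the filter 5 antisense members against 3 were called in H2B-K123R and 0 against 1 in rad6-R6A,M10A. The replicate block gave 2 member calls against 0 for H2B-K123R over rad6Δ untagged and 2 antisense ones against 1 in rad6-R6A,M10A. It moved no count of member calls in the 3 comparisons whose numbers pair the libraries, and for 18 of 24 libraries the closest library of another group had the same number.

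K. lactis scaling turned the sign of CAN1 (0.019 for rad6Δ tagged, 0.063 for rtf1-108-110AAA, 0.031 for rad6-R6A,M10A and 0.002 for rad6-R6Q), PUT4 in rtf1-108-110AAA (0.047), MEP1 in rad6-R6Q (0.036), DAL5 in rad6Δ tagged (0.268), rad6Δ untagged (0.203), rtf1-108-110AAA (0.142) and rad6-R6A,M10A (0.189), GAT1 in rad6Δ untagged (0.045) and rad6-R6Q (0.051), GLN3 for rad6-R6Q (-0.093) and rad6-R6A,M10A (-0.015) over rad6Δ tagged, MEP3 in rtf1-108-110AAA (0.009) and rad6-R6A,M10A (0.107), and on the antisense strand MEP3 (0.161) and MEP2 (0.18) in rad6Δ tagged and MEP1 in rad6Δ untagged (0.098), none of them called. MEP3 in rad6Δ tagged was -0.001 with median-of-ratios factors and with DESeq2, and -0.005 unstranded. Unstranded counts, which take in both strands, also turned GAT1 in rad6Δ untagged (0.911, called) and rad6-R6Q (0.208, not called). GAT1 had 491 antisense and 159 sense counts, so these values are not those of the sense strand alone. With 1 library left out, MEP1 in H2B-K123R lay between -0.161 and 0.124, PUT4 between -0.641 and 0.504 in rtf1-108-110AAA and between -0.041 and 1.104 in rad6-R6A,M10A, MEP3 between -0.027 and 0.029 in rad6Δ tagged and between -0.069 and 0.076 in rad6-R6Q, and GAT1 antisense in rtf1-108-110AAA between -0.172 and 0.493. DAL5 ran, for rtf1-108-110AAA, from -0.465 to 0.111, for rad6-R6A,M10A from -0.459 to 0.131, for rad6-R6Q from -0.087 to 0.285 and for rad6Δ tagged from -0.322 to 0.221. For H2B-K123R it ran from -0.298 to 0.122 and for rad6Δ untagged from -0.149 to 0.088. GAT1 ran from -0.319 to 0.506 for rad6-R6A,M10A and from -0.434 to 0.264 for rad6-R6Q, and without tags from -0.173 to 0.925 for H2B-K123R and from -0.632 to 0.467 for rad6Δ untagged. GLN3 over rad6Δ tagged lay between -0.038 and 0.062 for rad6-R6Q and -0.03 and 0.09 for rad6-R6A,M10A, and the difference of the PUT4 deletion effects between -0.574 and 0.591. Member calls then ranged from 1 to 4 in H2B-K123R, 2 to 4 in rad6-R6Q and 0 to 1 for H2B-K123R over rad6Δ untagged. Antisense ones ranged from 1 to 2 in each RAD6 deletion, 0 to 1 for both rtf1-108-110AAA and rad6-R6Q, and were 0 in rad6-R6A,M10A. Other than where a setting has fewer libraries, the cause was not tested. Low counts limit GAT1, DAL80 and every antisense value.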

Other observations

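Among the 51 pathway genes, antisense counts rose in all 6 mutants at NPR2, at NPR1 and at DUR1,2, which were picked out after their values were seen. Of the 3741 antisense genes tested, edgeR called 216 higher in all 6, which is 5.77%, and 7.65% higher in at least 5. The log2 changes were 2.09 to 3.33 at NPR2, a subunit of a complex that restrains TORC1, 1.89 to 3.55 at NPR1, a kinase that controls permeases, and 0.97 to 1.92 at DUR1,2, urea amidolyase. NPR2 lies next to CAN1 on chromosome V, at 34407 to 36254 on the plus strand. CAN1 is on the minus strand, so the antisense counts of these neighbours lie on opposite strands. Whether their antisense rises are related was not tested. Antisense counts of the permease genes TAT1 and LYP1 rose in 5 of the 6.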
